A study of Caenorhabditis elegans with 6 samples.

Results

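The gene expression of adult Caenorhabditis elegans at an age of 6 days was described from 3 of the 6 RNA-seq libraries of the series, those labelled as given water. All 3 came from whole worms of N2, the laboratory wild-type strain, grown on NGM agar plates with the Escherichia coli strain OP50 as food. The labels do not say whether the 6 days run from hatching or from adulthood, how many worms made a library, or whether the libraries came from separate cultures. The spread among them may therefore be technical. The other 3 libraries, from worms of the same strain and age given D-mannose, were not used here, and no comparison between groups was made. Every result is a description of 1 group, with no test. Values are FPKM, fragment numbers divided by gene length and by library size, and a set of 3 values is always given in the order water 1, water 2, water 3. The members are the 45729 genes that have a value, of 47656 genes listed.

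The adult hermaphrodite is a self-fertilising animal of few somatic cells wrapped around a large gonad. Its intestine digests bacteria, stores fat and makes vitellogenins, the yolk lipoproteins that growing oocytes take up. The epidermis secretes a cuticle built of many small collagens, and a different set of collagen genes is used at each moult. The germline is a syncytium that fills oocytes with messenger RNAs and ribosomes before fertilisation, and in it the X chromosome is known to be largely silent. Sperm are made once, in the last larval stage, and are then stored. RNA of a whole worm is the sum of all these tissues, and fewer cells of a type cannot be told apart from less RNA per cell.

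The libraries held 43700000, 40300000 and 46000000 read equivalents after rounding, and for a gene of 1 kb a single read came to 0.0207, 0.0231 and 0.0259 FPKM. A value of 0 in such a gene allows a level of up to 0.062, 0.0692 and 0.0777 FPKM, the worth of 3 reads, and this limit covers counting error only. The sums of all values were 872883, 880100.0 and 1050886 FPKM. Water 3 had the highest sum, so shares of the sum are given beside levels. Water 3 also stood apart from the other libraries gene by gene. Across the 10251 genes with at least 1 FPKM in all 3 libraries, here called detected, Spearman's rho was 0.991 between water 1 and water 2. It was 0.937 between water 1 and water 3, and 0.949 between water 2 and water 3. A difference of more than 1 on the log2(FPKM + 1) scale separated water 1 from water 2 for 0.449% of these genes. The same held for 14.6% of them between water 1 and water 3, and for 12.1% between water 2 and water 3. Values that rest on water 3 are given library by library. In addition, 25 genes, nearly all of them in overlapping gene models, jump between high and near-0 values from library to library and are described at the end.

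The labelled age was set against genes of other stages and of males. Of 4 collagens of the adult cuticle, col-19 and col-7 were detected, and bli-1 and bli-2 were not. The median of these 4 was 10.9 FPKM, and the highest, col-19, stood at 2789, 2713 and 3234 FPKM. All 6 vitellogenin genes, which are adult-specific, had at least 380.4 FPKM in every library. Of 13 genes of moulting larvae 2 were detected, nhr-23, a nuclear receptor that drives moulting, at 3.7, 4.04 and 17.8 FPKM, and nas-37, a protease of ecdysis, at 6.8, 5.72 and 4.91 FPKM. None of 10 male genes was detected. Among them pkd-2, a polycystin of male sensory neurons, and cwp-1 and cwp-3 were listed at 0 in all 3 libraries, and mab-3, the highest, at 0.323, 0.425 and 0.231 FPKM. Genes first transcribed by the embryo were also low, with 1 of 18 detected (sdz-28, 4.31, 3.66 and 2.03 FPKM) and a median of 0.405 FPKM. For comparison, 50.6% of all 19950 protein-coding genes with a value were detected, and their median was 1.43 FPKM.

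The messages were spread very unevenly over the genes. Above 0 in at least 1 library were 20249 genes, and 25480 were listed at 0 in all 3. Of the latter, 14646 were piRNA genes and 6638 were of the class ncRNA. Only 2835 of the 19950 protein-coding genes were at 0 in all 3. At least 10 FPKM in all 3 was reached by 5638 genes, at least 100 by 1225, and at least 1000 by 121. The 100 most abundant genes of each library held 38, 38.1 and 40.3% of its summed FPKM, and the 1000 most abundant 72.8, 72.3 and 73.8%. It took 221, 219 and 184 genes to reach 50% of the sum, and 2963, 3033 and 3036 to reach 90%. The leading genes were mostly the same in the libraries, with 85 genes in the highest 100 of all 3 and 797 in the highest 1000 of all 3.

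**Figure D1:**
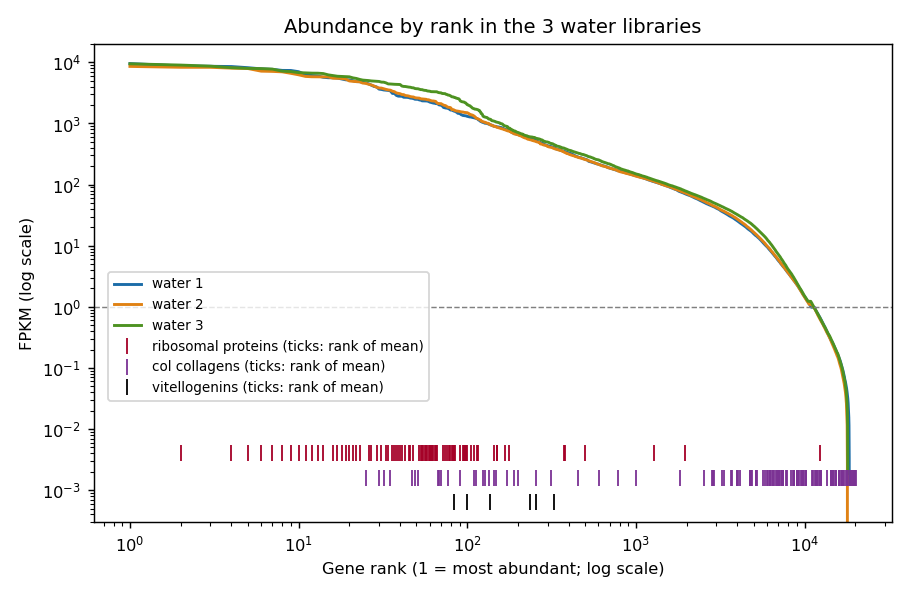
FPKM of each gene against its rank in each library (both axes logarithmic; genes at 0 are not drawn), with ticks for the rank of the mean of 3 gene families and a dashed line at 1 FPKM. The curves nearly coincide, and the ribosomal protein genes take most of the first ranks, ahead of the col collagens and the vitellogenins.

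Protein synthesis led the ranking. Of the 30 genes with the highest mean, 23 carry ribosomal protein names. Under sequence names, Y37E3.8 and W01D2.1 are ribosomal proteins by RefSeq or by the deposited annotation. The highest gene with a ribosomal protein name was rpl-10, a large-subunit protein (chromosome II, 8143881 to 8144683, WBcel235), at 8185, 8313 and 9472 FPKM. It was followed by rps-23 at 7391, 7938 and 8182 FPKM and rps-8 at 7682, 7119.7 and 8670.4 FPKM, both of the small subunit. Y37E3.8, which RefSeq names rpl-27A, stood at 8548, 8305 and 7971 FPKM, and W01D2.1, annotated as ribosomal protein L37, at 5603, 5784 and 5931 FPKM. The first rank of the mean belonged to T08B2.17, a model of 85 bases at 9552, 8588 and 7908 FPKM that lies inside rps-17 (7040.0, 6264 and 5893 FPKM), on the same strand. Which of these models the reads belong to cannot be told apart. Short genes were common at the top: 29 of the 30 were at most 1000 bases long.

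The 81 cytosolic ribosomal protein genes with rpl, rps or rla symbols held 28.4% ± 1.35 (SD, n = 3) of the summed FPKM. Large-subunit genes gave 15.5% ± 0.461 and small-subunit genes 12.3% ± 0.714. Counted in read equivalents, which do not divide by length, the share was 16.7%. In the family 68 genes reached 1000 FPKM in every library and 79 were detected. Among the lowest was rpl-42, listed at 0.458, 0.702 and 0.788 FPKM, and rps-29 had 52.2, 62.1 and 111 FPKM over a listed length of 4353 bases. The ribosomal proteins of mitochondria were far lower, with a median of 95.5 FPKM against 2705 FPKM for the cytosolic ones. Their 71 genes held 0.777% ± 0.121 of the sum, led by mrpl-12 at 228, 216 and 219 FPKM.

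The soluble factors of translation were led by 1 initiation and 1 elongation factor. iff-1, one of 2 genes for eIF5A, which helps ribosomes through difficult peptide bonds, stood at 4847, 4389 and 4098 FPKM, and its paralogue iff-2 at 225, 236 and 261 FPKM. eef-1A.1, which delivers aminoacyl-tRNA to the ribosome, had 2799.6, 2977 and 9033 FPKM. Its level in water 3 was about 3-fold that in the others, and eef-2, the translocation factor, showed the same order at 877, 1011 and 2995 FPKM. All 6 elongation factor genes were highest in water 3. Aminoacyl-tRNA synthetases were all detected (31 of 31), with kars-1, the lysine enzyme, highest by mean at 203, 235 and 408 FPKM.

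Several duplicated genes of this machinery were expressed very unequally. Of the FPKM of the pair rpl-11.1 and rpl-11.2, rpl-11.1 held 87.2, 87.1 and 82.8%. In the same way rpl-25.2 held 90.9, 91.7 and 89.9% of its pair with rpl-25.1. rpl-41.2 held 95.7, 95.1 and 95.3% of its pair, but it lies within rpl-41.1 on the same strand, so the reads of these models cannot be told apart. The poly(A)-binding protein pab-1 had 336, 358 and 1058 FPKM against 4.37, 4.06 and 5.61 for pab-2. Among Y-box proteins, which coat messenger RNA, cey-2 (2803, 3119 and 3939.5 FPKM) and cey-3 (1816, 1797 and 1697 FPKM) exceeded cey-4 (279, 333 and 722 FPKM) and cey-1 (159, 189 and 261 FPKM) in every library. One order turned: the cap-binding protein ife-1 was above ife-3 in water 1 and water 2 and below it in water 3 (371, 369 and 337 against 151, 191 and 498 FPKM). Near-identical copies share reads, so the split within such pairs is uncertain.

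The cuticle came next. The 156 col genes held 5.28% ± 0.0729 (SD, n = 3) of the summed FPKM. It came from a few of them: 23 genes with a mean of at least 500 FPKM made up 94.9, 95.6 and 95.8% of the family's FPKM. Between 100 and 500 FPKM lay only 5 genes, between 1 and 100 there were 69, and below 1 another 59. The highest was col-140 (chromosome V, 5830342 to 5836834) at 4619, 4589 and 4969 FPKM. Next were col-119 (3971, 3812 and 4440.3 FPKM), col-124 (3650.3, 3698 and 4430.0 FPKM) and col-20 (3607, 3610.4 and 4041 FPKM). The collagens known by the misshapen or blistered cuticle of their mutants were much lower: the 20 of them held 0.00909% ± 0.00398 of the sum, with bli-6 highest at 17.4, 18.1 and 39.1 FPKM and rol-6 at 1.82, 1.08 and 2.35 FPKM. bli-1 and bli-2, collagens known from the struts of the adult cuticle, stayed under or near 1 FPKM (bli-1 at 0.217, 0.0605 and 0.434 FPKM, bli-2 at 1.0, 0.777 and 0.847 FPKM). Of the 13 epidermal markers 7 were detected, or 53.8%, against 50.6% of all coding genes. Among them lin-26, a transcription factor of epithelial fate, stood at 20.9, 18.9 and 33.9 FPKM. Cuticlins, 2 of 35 detected, and hedgehog-related proteins, 11 of 59, were mostly below the threshold too, although grd-5 had 266, 265 and 259.8 FPKM and grd-3 166, 176 and 187 FPKM. In the basement membrane, ost-1, the worm SPARC, stood at 324, 310.3 and 329 FPKM, above the type IV collagens let-2 (41.4, 33 and 52.3 FPKM) and emb-9 (37.1, 29.5 and 46.2 FPKM).

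**Figure D2:**
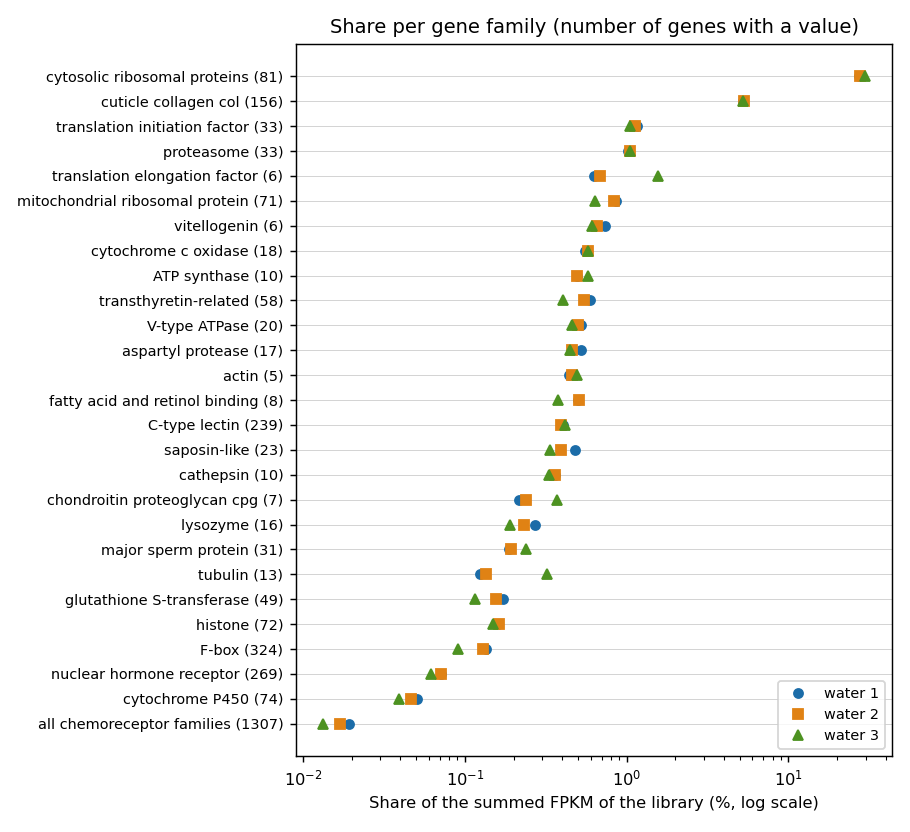
Share of the summed FPKM of each library held by gene families (logarithmic axis in percent; the number of genes with a value in brackets; 1 marker per library). Cytosolic ribosomal proteins and col collagens exceed all other families drawn, and translation elongation factors and tubulins have their highest share in water 3.

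The vitellogenins were among the highest of the long genes. vit-2 (chromosome X, 5101032 to 5106169) stood at 2112, 1829.8 and 2021 FPKM, rank 83 of the mean, and vit-6 at 1787, 1587 and 1674 FPKM. The others followed in the order vit-5 (1044, 933 and 1109 FPKM), vit-3 (553, 537 and 594 FPKM), vit-4 (514, 499 and 556 FPKM) and vit-1 (424, 380.4 and 448 FPKM), the same in each library. vit-3 and vit-4 are near-identical copies, so their split is uncertain. The family held 0.667% ± 0.0648 of the summed FPKM. Since its genes are about 4940 bases long, it took 3.1% of the read equivalents, a measure that is not divided by length. rme-2, the receptor by which oocytes take up yolk, had 38.2, 49.1 and 394 FPKM.

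Small carriers of lipids exceeded vit-2 per length. far-2, which binds fatty acids and retinol, had 3477, 3541 and 3083 FPKM and lbp-9, an intracellular lipid-binding protein, 2413, 2362 and 2028 FPKM. All 7 fat desaturase genes were detected, led by fat-2 at 618, 648 and 572 FPKM, with the stearoyl-CoA desaturases fat-6 at 467, 459.9 and 331 FPKM and fat-7 at 398, 449 and 364 FPKM. The elongase elo-1 had 567, 568 and 520.3 FPKM. Acyl-CoA oxidases of peroxisomes were lower, at most 24.6 FPKM for acox-1.5, and of 24 lipase genes 6 were detected.

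The intestine was well covered. All 14 of its markers were detected, with a median of 41.1 FPKM. asp-1, an aspartyl protease of the gut, was the highest at 1787, 1479 and 1711 FPKM, followed by the cathepsin cpr-6 (589, 669.6 and 675 FPKM) and by act-5, the actin of the microvilli (454, 461 and 513 FPKM). The transcription factors were at the low end, elt-2 at 5.58, 4.69 and 7.57 FPKM and elt-7 at 5.04, 4.72 and 4.84 FPKM. Aspartyl proteases as a family held 0.477% ± 0.0424 of the sum and cathepsins 0.351% ± 0.0162, with cpl-1, a cathepsin L, at 1002, 1046 and 1112 FPKM.

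In the digestive and defence families a few members led. Of 16 lysozymes 9 were detected, or 56.3%, against 50.6% of all coding genes. Their leaders were ilys-5 at 991, 869.9 and 851 FPKM and lys-4 at 965, 779.6 and 739 FPKM. Among saposin-like proteins, 14 of 23 detected, spp-5 led at 1253, 1072 and 986 FPKM. C-type lectins, the largest of these families, had 62 of 239 detected and 85 listed at 0 in all 3 libraries. Their leader clec-87 was at 621, 715 and 1681 FPKM and was highest in water 3. Genes known to be induced by pathogens and toxins lay near all coding genes, with a median of 1.71 against 1.43 FPKM. Of that list 10 of 20 were detected, against 50.6% of coding genes. Of these 10, 5 overlap another expressed gene on the same strand. Some members were low: pals-5, a reporter of infection by microsporidia, was listed at 0 in all 3, and irg-1 had 0.651, 0.605 and 0.34 FPKM. The highest member had a mean of 182 FPKM. Secreted transthyretin-related proteins, 45 of 58 detected, held 0.516% ± 0.0976 of the sum and 0.282% of the read equivalents, with ttr-16 at 862, 821 and 685 FPKM. dct-16, grouped here with CUB-like defence genes by its symbol, stood at 1244, 1324 and 1127 FPKM.

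Germline and oocyte messages were abundant, and they differed between the libraries. All 20 germline markers and all 20 oocyte and eggshell markers were detected, with medians of 69.4 and 252 FPKM. The oocyte list held 0.549, 0.624 and 1.09% of the summed FPKM and the germline list 0.139, 0.16 and 0.394%, water 3 above the others in both. Without water 3, the mean shares were 0.587% and 0.149%. In read equivalents the germline list held 0.492% on average. Members were highest in water 3 in 18 of 20 and 17 of 20 cases, against 43.8% of all detected genes. The median difference of water 3 from water 1 was 1.21 and 1.44 on the log2 scale, against 0.01 over all detected genes. Median gene lengths were 1798 and 2385 bases, against 647 for ribosomal proteins and 1396 for all detected genes, and the part of length in this difference was not tested.

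Among the eggshell proteins, cpg-3, a chondroitin proteoglycan, was steady at 895, 937 and 911 FPKM. Its relatives cpg-2 (409.6, 586 and 1744 FPKM) and cpg-1 (54.1, 53.4 and 664 FPKM) were not, and both were highest in water 3. perm-2, of the permeability barrier, had 803, 775 and 1282 FPKM. Maternal RNA-binding proteins were high as well, spn-4 at 344, 438 and 672 FPKM, pos-1 at 313, 388 and 592 FPKM and the PUF protein puf-5 at 158, 185 and 636 FPKM. In the germline list, car-1, an RNA-granule protein, ranged from 142 to 1169.7 FPKM and gld-1, a translational repressor, from 69.2 to 513 FPKM. wago-1, an Argonaute of the small RNA pathways, stood at 143, 175 and 376 FPKM. him-3, a protein of the meiotic chromosome axis, went the other way at 169, 162 and 121 FPKM, and glp-1, the Notch receptor of germline stem cells, had 18.9, 23.3 and 36.7 FPKM.

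Sperm genes were present at middle to low levels. Of 17 sperm markers 10 were detected, or 58.8%, against 50.6% of all coding genes. Of these 10, 4 overlap another expressed gene on the same strand. The highest was msd-4 at 156, 169 and 169.8 FPKM. Genes of sperm function went lower still, from spe-38, a membrane protein of fertilisation, at 17.9, 20.8 and 13.1 FPKM, to those not detected. Of the latter, spe-9, a sperm surface protein of fertilisation, had 0.0613, 0.171 and 0.0896 FPKM and fer-1, needed for membrane fusion in spermatids, 0.0396, 0.0184 and 0.161 FPKM. The major sperm proteins, which form the motile cytoskeleton of sperm, were detected in 29 of 31 cases and held 0.206% ± 0.0283 of the sum, led by msp-40 at 95.4, 106 and 147 FPKM. Their share of the read equivalents was 0.0733%. These genes are near-identical copies, so their individual values are uncertain. Around the gonad, all 7 uterine markers were detected, with a median of 363 FPKM. Of these, ule-4 (1009, 897 and 758 FPKM) and ule-5 (803, 714 and 840.1 FPKM) were high, and of 10 sheath and spermatheca markers 8 were detected, the gap-junction gene inx-8 highest with a mean of 98.1 ± 11.3 FPKM (SD, n = 3).

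**Figure D3:**
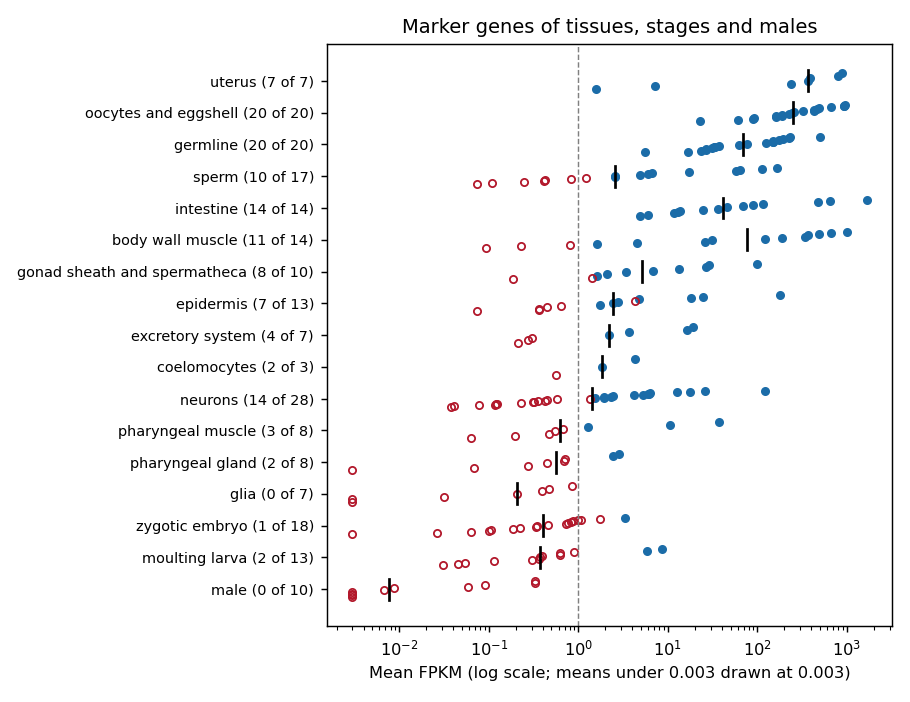
Mean FPKM of each marker gene over the 3 libraries (logarithmic axis), by list; filled points are detected genes, open points are not, the bar is the list's median, the dashed line is 1 FPKM and brackets give detected of measured. Uterus, oocyte, germline, intestine and muscle lists lie mostly above 10 FPKM, and glia, embryo, larva and male lists lie almost wholly below 1 FPKM.

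Of 14 body wall muscle markers 11 were detected, and the highest of this list encode parts of the thin filament: act-4, an actin (988, 982 and 992 FPKM), unc-27, a troponin I (647, 675 and 647 FPKM), and tnt-2, a troponin T (484, 503 and 467 FPKM). These varied little between libraries. Outside the list mlc-2, a myosin light chain chosen after its values were seen, was higher at 1343, 1377 and 1231 FPKM. unc-54, the main myosin heavy chain, had 132, 90.2 and 141 FPKM. Giant proteins came out low: twitchin (unc-22) at 0.0805, 0.0651 and 0.133 FPKM over a listed length of 21601 bases, and obscurin-like unc-89 at 0.208, 0.22 and 0.252 FPKM over 24703 bases. Small organs gave low values, with 4 of 7 excretory markers detected (aqp-8, a water channel, 16.5, 13.7 and 18.2 FPKM) and 2 of 3 of coelomocytes, the scavenger cells (cup-4, 5.0, 4.69 and 3.21 FPKM). Pharyngeal markers were low, with 3 of 8 muscle genes (tni-4, a troponin I, 37.3, 38.1 and 36.8 FPKM) and 2 of 8 gland genes detected.

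Neuronal markers lay near the level of all coding genes. Of 28 neuronal markers 14 were detected, against 50.6% of all coding genes, and their median of 1.43 FPKM was close to that of coding genes. snb-1, the vesicle protein synaptobrevin, was highest at 76.6, 94.8 and 189.8 FPKM, and sbt-1, a chaperone of neuropeptide processing, had 28, 25.1 and 25.3 FPKM. Enzymes and transporters of single transmitters were lower: unc-25 (GABA synthesis) at 2.17, 2.24 and 2.89 FPKM, unc-17 (acetylcholine transport) at 0.302, 0.253 and 0.50 FPKM, and cat-2 (dopamine synthesis) at 0.051, 0 and 0.0638 FPKM. Neuropeptide genes were detected more often than the neuronal markers, with 26 of 31 flp genes (flp-28 highest at 43.4, 39 and 48 FPKM, below snb-1) and 47 of 75 nlp genes. Among the latter, nlp-77 had 603, 618 and 599.6 FPKM and nlp-40, a peptide that the intestine releases, 285, 275 and 257 FPKM. None of 7 glial markers was detected, and 11 of 39 insulin-like peptide genes were, ins-27 highest at 10.4, 9.97 and 9.27 FPKM.

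Of 65 genes of the respiratory chain, ATP synthesis and proton pumps, 62 were detected. ant-1.1, which exchanges ADP for ATP across the inner mitochondrial membrane, had 1273, 1512 and 2908 FPKM, and the highest of its 3 paralogues, ant-1.3, 3.75, 3.51 and 3.89 FPKM. cyc-2.1, the main cytochrome c, was at 798, 838 and 1053 FPKM and atp-2, the catalytic subunit of ATP synthase, at 591, 631 and 1439 FPKM. In glycolysis 21 of 23 genes were detected, aldo-2, an aldolase, highest at 418, 412 and 786 FPKM. All 26 genes of the citrate and glyoxylate cycles were detected, with mdh-1, a malate dehydrogenase, at 358, 389 and 621 FPKM. Most of both lists were highest in water 3 (17 and 23 genes). With water 3 the order of 2 isoenzyme pairs turned. The glyceraldehyde-phosphate dehydrogenase gpd-3 had 218, 305 and 254 FPKM and gpd-1 109, 144 and 505 FPKM. The pyruvate kinase pyk-1 had 34.9, 37.3 and 98.6 FPKM and pyk-2 47.8, 44.2 and 31.7 FPKM. V-type ATPase genes, which acidify compartments, were all detected and held 0.494% ± 0.033 of the sum.

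Chaperones were high in worms that no label describes as stressed. hsp-90, the cytosolic Hsp90, had 1759, 2113 and 3077 FPKM and hsp-1, the constitutive Hsp70, 584, 670.3 and 2273 FPKM. sip-1, a small heat shock protein known from oocytes and embryos, had 550.0, 756 and 2298 FPKM, and all of these were highest in water 3. The inducible heat shock genes, textbook reporters of heat that are very low in unstressed worms, were all detected (9 of 9). hsp-16.11 stood at 697, 417 and 419.8 FPKM, hsp-16.2 at 219, 134 and 125 FPKM, and the inducible Hsp70 genes F44E5.4 at 444, 306 and 276 FPKM and hsp-70 at 45.5, 31.6 and 23 FPKM. Here water 1 was the highest library, for all 9 genes, and the list held 0.352, 0.222 and 0.175% of the sum. hsp-16.1 and hsp-16.11, like F44E5.4 and F44E5.5, are near-identical copies. Proteasome genes held 1.03% ± 0.0175 of the sum, pas-5 highest at 967, 865 and 754 FPKM.

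Antioxidant enzymes were detected in 16 of 17 cases. prdx-2, a peroxiredoxin, had 864, 955 and 1041 FPKM, sod-1, the cytosolic superoxide dismutase, 394, 408 and 446 FPKM and sod-2, of mitochondria, 323, 296 and 265 FPKM. sod-3, induced when insulin signalling is low, was near 4.16 FPKM on average, and sod-5 was listed at 0 in water 1 and water 2. The iron store ftn-2 had 374, 367 and 336 FPKM against 5.5, 6.87 and 5.59 for ftn-1, and the metallothionein mtl-2 108, 82.4 and 75.1 FPKM against 1.94, 2.29 and 0.694 for mtl-1. In the insulin and longevity pathway, 15 of 20 genes were detected. daf-2, the insulin receptor, had 1.4, 1.74 and 7.2 FPKM, and daf-16, the FOXO factor, 11.6, 13.3 and 28.1 FPKM. Detoxification families were broad but low, with 34 of 74 cytochrome P450 and 44 of 66 glycosyltransferase genes detected, while gst-1 reached 655, 577 and 493 FPKM.

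Chemoreceptor genes were nearly silent, and regulators were low. Of 1307 chemoreceptor genes 7 were detected and 939 were listed at 0 in all 3 libraries, and together they held 0.0193, 0.0169 and 0.0133% of the sum. The highest was sri-40, at 86, 76.4 and 74.3 FPKM, followed by srh-237 at 14.7, 14.1 and 11.2 FPKM and srv-1 at 11.6, 10.8 and 11 FPKM. Nuclear hormone receptors were detected in 94 of 269 cases, nhr-114 highest at 72.3, 62.3 and 66.3 FPKM, and homeobox ceh genes in 24 of 64. The F-box family had 75 of 324 detected, fbxa-215 alone of it above 100 FPKM in all 3 libraries at 282, 275 and 189 FPKM. Innexins, the gap-junction proteins, had 17 of 24 detected and inx-14, of the germline, at 118, 126 and 111 FPKM.

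Protein-coding genes held 98.1% ± 0.13 (SD, n = 3) of the summed FPKM. Of 15363 piRNA genes, of 21 bases each, 5 were detected, 3 of them overlapping other expressed genes on the same strand. Whether these libraries hold RNAs this short was not tested, so the count is no measure of piRNA levels. Ribosomal RNA genes held 0.178, 0.162 and 0.268% of the sum, with rrn-3.1 at 570.5, 550.4 and 1101 FPKM, and 0.385% of the read equivalents on average. Of long noncoding RNAs 22 of 191 were detected, the highest lep-5, a regulator of the timing of adulthood, at 181, 165 and 162 FPKM, and linc-6 at 108, 80 and 67.6 FPKM. Antisense RNAs were rarer (8 of 100), anr-3 highest at 30.4, 36.1 and 32.2 FPKM, and without a stated strand setting they cannot be told apart from their sense partners. A large part of the coding messages has no gene symbol in the files: 9583 such genes, 4260 of them detected, held 21.4, 20.8 and 18.3% of the sum. Examples, chosen after their values were seen, are Y82E9BR.3, annotated as the lipid-binding protein of ATP synthase (1329, 1536 and 2555 FPKM), F46H5.3, a probable arginine kinase (1136, 1092 and 1263 FPKM), and K08D12.3, with no described function (1601, 1685 and 1978 FPKM).

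Chromosomes differed in how many of their coding genes were detected and how high. Detected were 63.2% on chromosome I, 66.3% on III, 53.3% on IV, 49.8% on II, 46.2% on X and 36.1% on V. The median level of detected coding genes was 22.4, 23.5 and 29.4 FPKM on chromosome III, the highest in water 1 and water 3, and 6.27, 6.12 and 6.98 FPKM on X, the lowest in each library. Over the autosomes together it was 17.5, 18.6 and 23.7 FPKM, so the ratio of X to autosomes was 0.328 ± 0.0321 (SD, n = 3). X carries 13.7% of the coding genes and held 6.2% ± 0.434 of the summed FPKM. The 5 X-linked genes among the highest 100 were the collagens col-19, col-178, col-181 and col-184 and the yolk gene vit-2.

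Along the autosomes more genes were detected in the middle, and at higher levels, than toward the ends. With each autosome cut into 10 equal sections, 46.1% of coding genes were detected in the first section and 50.1% in the last, with medians of 15.5 and 17.2 FPKM. Section 6 had the highest share, 62.2%, and a median of 27 FPKM. Section 2 had the lowest share, 38.1%, and a median of 11.6 FPKM. On X the end sections had 42.5% and 43.9% detected, with medians of 5.27 and 5.57 FPKM. The inner sections of X went up to 53% detected in section 5 and to a median of 8.66 FPKM in section 7, and their lowest median, 4.93 FPKM in section 8, was below both ends. Neighbouring coding genes on opposite strands that start within 500 bases of each other were both detected in 58.3% of 849 pairs, against 26% of 1412 pairs that lay 2000 to 10000 bases apart. For same-strand neighbours the shares were 47.6% and 22.9%. For neighbours whose ends face each other they were 23.9% of 1106 pairs and 19.3% of 549 pairs, a far smaller difference.

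**Figure D4:**
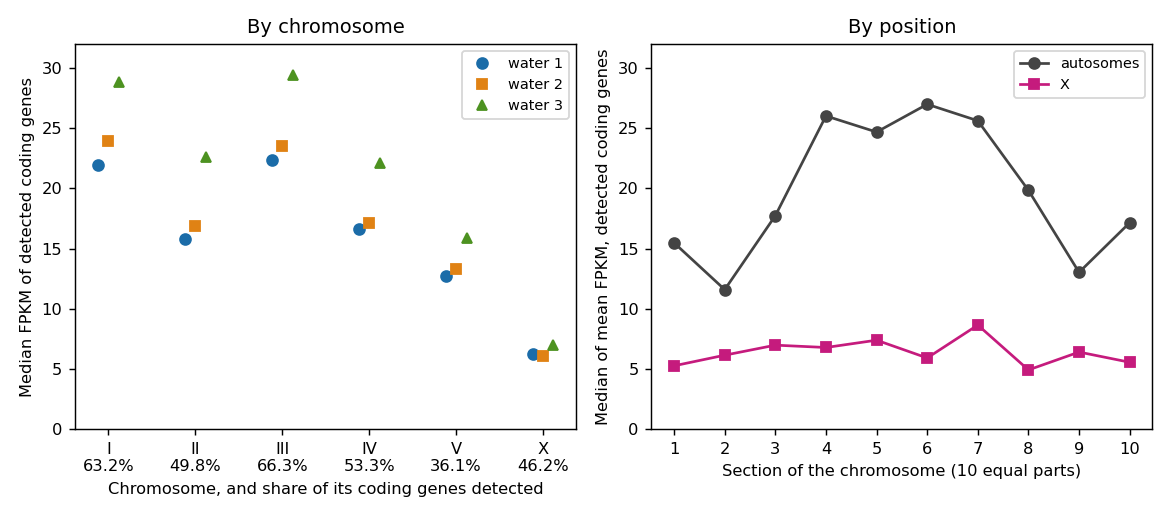
Left, median FPKM of detected protein-coding genes per chromosome, 1 marker per library, with the share of coding genes detected under each name; right, the median of the mean FPKM per section, 10 to a chromosome, for the 5 autosomes together and for X. X is lowest in all 3 libraries, and the autosomal medians peak in the middle sections.

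The spread among the 3 libraries was modest for most genes and wide for some. The median SD of log2(FPKM + 1) over detected genes was 0.21, or 0.0994 without water 3, and 5% of the genes had an SD above 1.00. Of 3926 named genes with a mean of at least 10 FPKM, the 12 with the highest SD, from 2.75 to 6.35, all fell below 1 FPKM in at least 1 library. rpl-17, col-93, col-94 and col-160 led them, and all 12 are among the jumping genes described at the end. Among the 3913 of these named genes that were detected in all 3 libraries, the steadiest were dnj-23 (136, 135 and 136 FPKM), cept-1 (38.5, 38.5 and 38.6 FPKM) and trpp-3 (143, 142 and 142 FPKM). act-4, aldo-1 and exc-4, a chloride channel of the excretory canal (19.2, 19 and 19 FPKM), also belonged to the 12 steadiest, all with an SD of at most 0.013. The 12 most variable of the detected genes had SDs of 1.72 to 2.08, and 10 of them were highest in water 3. These included cpg-1, rme-2, cbd-1, an eggshell protein (42.8, 41.1 and 483 FPKM), mex-5, a polarity factor of the early embryo (35.6, 42.5 and 364 FPKM), lin-41, a regulator of oocyte growth (5.61, 5.56 and 58 FPKM), and the PUF genes puf-6 and puf-7. Over all detected genes, 1284 were more than 2-fold higher in water 3 than in both others, 10 in water 1 and 11 in water 2.

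The height of water 3 went with gene length over all detected genes, though not in every family. For detected genes of up to 500 bases its median difference from water 1 was -0.18 on the log2 scale. For 2000 to 3000 bases it was 0.32, and for the 210 genes over 5000 bases 1.02. Between water 2 and water 1 the same medians were -0.08, 0.12 and 0.11. Ribosomal proteins showed the trend too: the 24 genes of up to 500 bases had a median difference of 0.10 between water 3 and water 1, and the 19 genes over 800 bases 1.01. The ranges overlapped widely, from -0.42 to 1.14 for the short genes and from -0.24 to 1.69 for the long ones. Not every long gene was higher in water 3, since vit-2, at 4944 bases, and unc-54, at 6295 bases, were not clearly so: vit-2 in water 3 lay between the other libraries, and unc-54 was near its level in water 1. Both were chosen after their values were seen. Some families of shorter genes also had higher FPKM in water 3, and these too were chosen after their values were seen. All 29 detected major sperm protein genes were highest there, with a median difference of 0.60 from water 1. Of the 83 detected col genes 77 were highest there, with a median difference of 0.53. By contrast, 15 of 17 detected nspc peptide genes were lowest in water 3. Among all detected genes 43.8% were highest in water 3 and 42.7% lowest. As shares of the summed FPKM, the major sperm proteins held 0.186, 0.194 and 0.239% and nspc genes 0.0777, 0.0749 and 0.0498%. The col genes held 5.26, 5.36 and 5.21%, so their share was lowest in water 3. Median lengths over all members with a value were 384 bases for major sperm proteins, 1047.5 for col and 397 for nspc genes. Whether the samples or the making of the libraries differed was not tested.

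**Figure D5:**
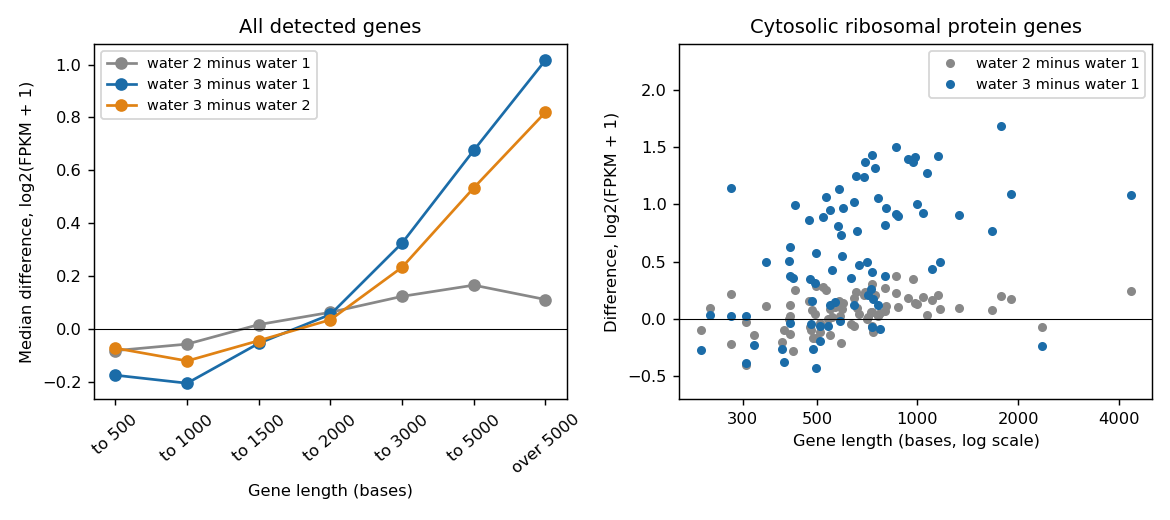
Left, median difference in log2(FPKM + 1) between each pair of libraries for detected genes, by gene length in bases; right, the difference for each cytosolic ribosomal protein gene against its length (logarithmic axis). On the left, both differences that involve water 3 rise with length to 0.82 and 1.02 for genes over 5000 bases. The medians of water 2 minus water 1 stay within 0.17 there, while single ribosomal protein genes on the right go beyond it.

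Some values jumped between libraries in a way that goes with overlapping gene models. For 25 genes the highest library had at least 20 FPKM and at least 20 times the lowest, and 24 of them overlap another expressed gene on the same strand, against 16.2% of all detected genes. rpl-17 (chromosome I, 1156571 to 1162942) had 1210.4, 3160.2 and 0 FPKM, and the overlapping Y48G8AL.7 (chromosome I, 1156596 to 1162939), annotated as the same protein, 676, 7.01 and 2335 FPKM. The collagens col-93 (chromosome III, 10984552 to 10987824) and col-94 (chromosome III, 10982174 to 10987873) swapped in this way, col-93 at 0.0137, 1602 and 1855 FPKM and col-94 at 885, 0 and 0 FPKM. Together these collagens took 0.278, 0.261 and 0.236% of the read equivalents, a sum far steadier than its parts. The sum was less steady for rpl-17 with Y48G8AL.7, at 0.196, 0.223 and 0.283%, and for the overlapping rla-0 with tct-1, at 0.247, 0.512 and 0.419%. A value of 0 in 1 library can thus stand beside a high value of an overlapping model. The remaining gene, K04D7.17, a small nucleolar RNA gene, had 0.224, 38.3 and 95.1 FPKM and no expressed same-strand partner.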

How the data were processed

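Whole-worm RNA of the 3 water libraries was sequenced in short reads. RNA extraction used Trizol, per the labels' protocols, which name both a TruSeq and a VAHTS kit. Trimming by cutadapt, a quality check by FastQC and alignment to WBcel235 by HISAT2 (version 2.1.0) come from the submitters' processing notes. How reads were counted, by strand and on overlapping genes, is not stated there.

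Each gene has 1 deposited value, in FPKM as the authors computed it. The product of value and gene length came in whole steps, 1 step a read, to within 0.05 steps for 95.4, 95.1 and 95.4% of values below 20 reads. The step gives the read equivalents. No value is listed for 1927 genes, 1911 of them pseudogenes and 12 of the mitochondrial genome. Biotypes come from RefSeq, to which 45774 genes were matched by locus tag. Positions are those of the deposited tables.

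With Python 3.11.15 and pandas 2.3.3, levels, ranks, shares of the summed FPKM, list and family counts and the SD of log2(FPKM + 1) were computed, and the step and SD were checked on simulated data. A gene was called detected at 1 FPKM or more in all 3 libraries. Families were taken by gene symbol. Named are the 30 highest genes, up to 4 highest members of a list or family and its defining members at 0, and the 12 steadiest and 12 most variable genes with a symbol and a mean of at least 10 FPKM, with the most variable given also among detected genes alone, a limit added after the data were seen; further members of the lists and families named were chosen after their values were seen. The libraries, lists and families were chosen with earlier results of these data known. Thresholds, pseudocounts, scalings, overlapping models and each library were varied.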

Additional observations from a re-analysis of the deposited data

How the results depend on the processing

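In read equivalents the 100 most abundant genes held 29.1% (main value 38.8%), ribosomal proteins 16.7% (main value 28.4%), vitellogenins 3.1% (main value 0.667%) and the oocyte list 1.11% (main value 0.755%). Without genes that overlap another expressed gene on the same strand, the shares were 24.3% for ribosomal proteins, 5.69% for col collagens (main value 5.28%) and 0.908% for vitellogenins. The ratio of X to autosomal medians was 0.371 with a minimum of 0.1 FPKM, 0.395 for all genes above 0 and 0.457 with a minimum of 5 FPKM, each below 1. Leaving out 1 library in turn gave a median SD of 0.0994 to 0.249 on the log2 scale (main value 0.213), the lowest without water 3. Scaling gave a wider spread, 0.272 with the same sum in each library and 0.253 with upper-quartile scaling. Detected genes numbered 11916 with a minimum of 0.5 FPKM and 6947 with a minimum of 5 FPKM. Of the 48 values recomputed for the detected count, the top share, the X ratio, these 4 shares and the spread, 37 stayed within 1 SD or, for counts and the spread, within 1.5 times. The other 11 moved further. For the shares, leaving out 1 library cannot move the mean by 1 SD of the same 3 libraries. Those values had to stay, and they do not show that the shares are robust. Genes under the worth of 3 reads cannot be told apart from silence. No paired analysis was possible because 1 group is described and its results come from no test.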
